A study of Zea mays with 4 samples.

Results

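Genes of the C4 photosynthetic cycle and of rubisco were followed in the elongation zone of maize leaf 6, under low and control nitrogen. They were chosen by name, as the genes of PEP carboxylase, PPDK, NADP-malic enzyme, NADP-malate dehydrogenase, carbonic anhydrase, PEP carboxykinase, the rubisco small subunits and rubisco activase. Of 9 names, 8 matched a row each, among 30378 loci of the deposited table, and each of these rows was a locus of 1 gene that overlapped no other locus. The NADP-malic enzyme gene GRMZM2G085019 (me3) was not analysed here. All plants were of the inbred line B73, the line of the maize reference genome, and were grown in hydroculture, that is, with their roots in nutrient solution. Nitrogen was supplied at 0.04 mM for the 2 LN libraries (LN1 and LN2) and at 4 mM for the 2 control libraries (HN1 and HN2, in the order of the table). The labels give no plant age, no number of plants pooled in a library and no statement that replicates came from different plants, so every p-value measures the spread between these libraries alone, which may be technical.

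In the mesophyll of C4 leaves carbonic anhydrase turns carbon dioxide into bicarbonate, and PEP carboxylase joins this to the acceptor PEP. NADP-malate dehydrogenase then makes malate, and PPDK regenerates PEP. In maize the malate moves to the bundle sheath, where NADP-malic enzyme, helped by PEP carboxykinase, releases carbon dioxide next to rubisco. Rubisco is built from plastid-encoded large and nuclear-encoded small subunits, and rubisco activase keeps its sites open. In a growing grass leaf this machinery is assembled along the blade from base to tip, and the elongation zone lies below the mature photosynthetic blade.

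The values are FPKM, mapped fragments scaled by transcript length and by the size of the library, so levels can be compared between genes. FPKM totals were 666397 and 710263 in LN libraries, against 814307 and 1113330 in HN libraries. Absolute depth is unknown. From the lowest FPKM values, the library size by which FPKM was scaled was estimated relative to LN1. It came to 100% and 91.6% in the LN libraries and to 75.8% and 64.3% in the HN libraries. Whether this size equals the number of reads was not tested. A difference counts as a change where limma, fitted on log2(FPKM + 1) over 22489 tested loci, gave a Benjamini-Hochberg adjusted p under 0.05. Of all tested loci 3.8% were lower and 1.18% higher in LN by this rule. Where 1 library was left out, the spread came from the group with 2 libraries alone, and the lone library was assumed to vary like them. Without HN1 and without HN2, 23.6% and 10.98% of all tested loci were then called lower, so calls gained in these settings are not taken as support. Rescaling FPKM to equal totals moved the median log2 difference of all loci to 0.48, against 0.07 as deposited. Genes known from elongating cells were abundant in both groups: 39 loci of expansins, xyloglucan transferase, tubulins and plasma membrane aquaporins summed to 14307 and 13107 FPKM in LN and to 10555 and 16767 FPKM in HN, and 0 of the 34 tested ones changed by limma (1 was lower and 1 higher by an unadjusted p under 0.05, and the authors' deposited table called 1 of them lower).

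The C4 PEP carboxylase gene, both rubisco small subunit genes and the activase gene fell at low nitrogen, while carbonic anhydrase differed by less than the spread between HN libraries. Thus 4 of 8 genes passed the test as lower, against the 3.8% of all loci, and 0 of 8 as higher. Among the 4 the small subunit genes, whose loci can share reads, are counted separately. Fold differences in mean FPKM ran from 8.60 for PEP carboxylase through 5.17 to 5.67 for the small subunit and activase genes and 2.02 for PPDK to 1.08 for carbonic anhydrase, each with LN lower. In 7 of 8 genes both LN libraries lay below both HN libraries, as they did in 29.9% of all tested loci. For PEP carboxykinase, 1 of the 7, the filter on low values fixed this, since only the HN libraries reached 1 FPKM. Fewer cells of a type and less RNA per cell cannot be told apart in this bulk tissue.

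**Figure D1:**
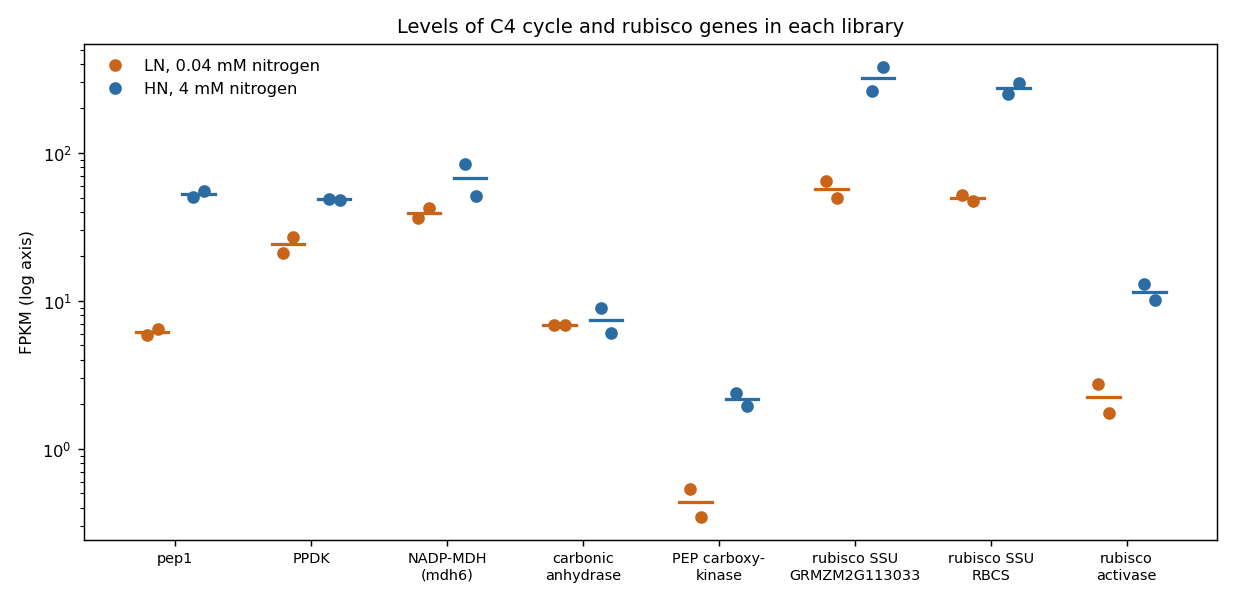
FPKM of each gene on a log axis, with 1 point per library (LN left, HN right of each pair) and a bar at the mean of the 2 libraries. The groups lie apart for every gene except carbonic anhydrase, with the widest gap for pep1 at 5.86 and 6.50 FPKM in LN against 50.6 and 55.6 FPKM in HN.

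PEP carboxylase of the C4 cycle is encoded by pep1 (GRMZM2G083841, chromosome 9, 62306265 to 62311673, B73 RefGen_v3 as for all positions here). It had 5.86 and 6.50 FPKM in the LN libraries, against 50.6 and 55.6 FPKM in the HN libraries. Both LN values were low, both HN values high, and the groups were far apart compared with the differences within them. The log2 change was -2.91 (SE 0.19, 95% interval -3.40 to -2.43, limma adjusted p = 0.0203), the 40th most negative of the 22489 tested loci. The call held with 0.1 FPKM added, a filter at 5 FPKM, quantile normalization, rescaling to equal totals and no mean-variance trend. It ended (limma adjusted p = 0.0737) when all loci above 0 were tested, a setting in which 0 loci were called lower and 1 higher. Leaving out 1 library gave log2 differences from -2.98 to -2.85. In the authors' deposited table pep1 had a log2 fold change of -3.20 and a q-value of 3.45e-19.

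Other PEP carboxylase genes, which serve functions outside the C4 cycle, did not pass the test. pep7 (GRMZM2G069542, chromosome 5) was at 41.0 and 37.6 FPKM in LN and at 44.3 and 56.3 FPKM in HN, a log2 difference of -0.34 (95% interval -0.89 to 0.21, limma adjusted p = 0.322). PEP4 (chromosome 7) was at 27.0 and 25.8 FPKM in LN and at 25.0 and 34.9 FPKM in HN, a log2 difference of -0.16 (95% interval -0.74 to 0.43). Both signs turned positive when FPKM was rescaled to equal totals, and that of PEP4 also under quantile normalization and without HN2. Leaving out 1 library gave from -0.51 (without HN1) to -0.17 (without HN2) for pep7. The pep1 transcript made up 7.94% and 9.30% of the summed FPKM of these 3 genes in LN, and 42.2% and 37.9% in HN. Summed over the 3 genes, PEP carboxylase was at 73.8 and 69.9 FPKM in LN and at 119.9 and 146.8 FPKM in HN.

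The kinases that phosphorylate PEP carboxylase did not follow pep1. PPCK1 was at 5.50 and 4.997 FPKM in LN, against 4.72 and 2.34 FPKM in HN, and PPCK2 was at 5.62 and 8.23 FPKM in LN, against 3.90 and 5.28 FPKM in HN. Neither passed the test (log2 differences of 0.52 and 0.49, limma adjusted p = 0.299 and 0.258). The value of PPCK1 was 0.90 without HN1 and 0.13 without HN2, and that of PPCK2 0.73 without LN1 and 0.25 without LN2. With rescaling to equal totals the values of PPCK1 and PPCK2 were 0.91 and 0.92, and under quantile normalization 0.34 and 0.35. PPCK3 did not reach 0.3 FPKM in any library, and the locus of PPCK4 holds several genes and was left out.

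PPDK makes PEP from pyruvate (GRMZM2G306345, chromosome 6, 146128290 to 146190142). It had 21.2 and 26.9 FPKM in LN libraries, against 49.0 and 48.1 FPKM in HN libraries. The groups did not overlap, but the log2 difference of -0.99 (SE 0.21, 95% interval -1.52 to -0.46) missed the threshold of the test, with a limma adjusted p of 0.0577. The limma adjusted p was 0.518 without LN1 and 0.311 without LN2, and the difference was -0.54 with rescaling to equal totals (limma adjusted p = 0.139). The authors' deposited table called it lower, with a log2 fold change of -1.18 and a q-value of 0.00199. This locus spans 61853 bp, the longest of the 8, which span 1191 to 7354 bp otherwise, and whether all reads counted there came from the PPDK gene was not tested.

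PDRP1, the regulatory protein that switches PPDK off and on (chromosome 2), was at 1.65 and 1.95 FPKM in LN and at 9.33 and 5.24 FPKM in HN. Its log2 difference of -1.52 also missed the threshold (95% interval -2.28 to -0.76, limma adjusted p = 0.0534), while its q-value in the authors' deposited table was 3.72e-05. Under quantile normalization it was called (-1.69, limma adjusted p = 0.0299). A second PPDK gene, PPDK2, stayed under 0.2 FPKM in all libraries. Both PEP/phosphate translocator genes, whose proteins carry PEP across the plastid envelope, were at higher levels than PDRP1. ppt1 was at 84.6 and 80.9 FPKM in LN and at 83.1 and 108.1 FPKM in HN. ppt2 was at 24.3 and 22.4 FPKM in LN and at 34.0 and 41.3 FPKM in HN, and the locus named TPT, as the triose phosphate translocator is, at 55.2 and 58.0 FPKM in LN and at 90.8 and 87.0 FPKM in HN. Their log2 differences were -0.20, -0.66 and -0.64, and none of the 3 passed the test (limma adjusted p = 0.603, 0.104 and 0.108). Both ppt2 and TPT were lower by an unadjusted p under 0.05, and the authors' deposited table called 0 of the 3. With rescaling to equal totals ppt2 was at -0.21 and TPT at -0.18. The file places TPT on chromosome 8, whereas the reference gene with that name lies on another chromosome, so the identity of this locus is uncertain. The sign of ppt1 turned positive when FPKM was rescaled to equal totals and under quantile normalization.

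NADP-malate dehydrogenase, the plastid enzyme that reduces oxaloacetate to malate, is encoded by mdh6 (GRMZM2G129513, chromosome 1, 203209823 to 203213983). It had 36.5 and 42.6 FPKM in LN libraries, against 84.4 and 50.9 FPKM in HN libraries. The groups did not overlap, but the HN libraries differed by more than the gap between HN2 and the LN libraries. The log2 difference was -0.72 (SE 0.30, 95% interval -1.46 to 0.03, limma adjusted p = 0.165). It ranged from -0.36 without HN1 to -1.08 without HN2, and was -0.26 with rescaling to equal totals and -0.44 under quantile normalization. The authors' deposited table gave it a q-value of 0.0631.

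Malate dehydrogenases of other compartments were more abundant. CYTMDH (GRMZM2G415359, with the synonyms mdh4 and mdh5), named as a cytosolic enzyme, was at 248.4 and 264.5 FPKM in LN and at 438.6 and 746.7 FPKM in HN. mdh2 (GRMZM2G154595) was at 134.8 and 146.7 FPKM in LN and at 274.0 and 459.8 FPKM in HN. Both were lower in LN without overlap and did not pass the test (log2 differences of -1.16 and -1.33, limma adjusted p = 0.119 and 0.0797), though both had q-values under 0.05 in the authors' deposited table (0.00339 and 0.000287). Leaving out 1 library gave from -1.54 (without HN1) to -0.77 (without HN2) for CYTMDH and from -1.70 to -0.96 for mdh2. Quantile normalization gave -0.29 and -0.54, and rescaling to equal totals -0.69 and -0.86, where mdh2 was called (limma adjusted p = 0.0485). Another malic enzyme gene, me2 (GRMZM2G122479), was at 134.9 and 128.5 FPKM in LN and at 105.3 and 106.0 FPKM in HN, a log2 difference of 0.32 (limma adjusted p = 0.368). It was 0.78 with rescaling to equal totals, and under quantile normalization me2 was called higher (0.87, limma adjusted p = 0.0446). Its locus spans 49302 bp, and its level does not stand for that of me3.

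Carbonic anhydrase supplies the bicarbonate that PEP carboxylase uses (GRMZM2G121878, chromosome 3, 215547875 to 215555228). It had 6.86 and 6.91 FPKM in LN libraries, against 8.89 and 6.03 FPKM in HN libraries. Both LN values lay between the HN values. The log2 difference was -0.08 (SE 0.25, limma adjusted p = 0.846), and its 95% interval of -0.70 to 0.54 leaves room for a modest change either way. The sign turned positive when FPKM was rescaled to equal totals (0.33) and without HN1 (0.17), and no setting called it.

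PEP carboxykinase releases carbon dioxide from oxaloacetate in the bundle sheath (GRMZM2G001696, chromosome 1, 35744405 to 35748813). It was the least abundant of the 8 genes, at 0.535 and 0.344 FPKM in LN libraries, against 2.38 and 1.95 FPKM in HN libraries. It passed the filter on low values, 1 FPKM in at least 2 libraries, only through the HN libraries. The mean was 4.92-fold lower in LN, and the log2 difference of -1.13 (SE 0.22, limma adjusted p = 0.0519), which the added 1 FPKM shrinks at such levels, missed the threshold. With 0.1 in place of 1 FPKM added the difference was -2.08, but its SE rose to 0.45 and it missed the threshold as well (limma adjusted p = 0.0688). The authors' deposited table gave a log2 fold change of -2.44 and a q-value of 6.60e-06. The related gene pck2 (GRMZM5G870932) was at 14.3 and 11.3 FPKM in LN and at 8.85 and 15.2 FPKM in HN, with overlapping groups. GRMZM2G001696 thus gave 3.62% and 2.96% of the summed FPKM of both genes in LN, and 21.2% and 11.4% in HN.

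Rubisco small subunit genes were the most abundant of the 8 in both groups, and both fell. GRMZM2G113033 (chromosome 2, 143429391 to 143430581) had 64.2 and 49.8 FPKM in LN libraries, against 261.4 and 384.5 FPKM in HN libraries. The row named RBCS (chromosome 4, 190228050 to 190230534) had 51.7 and 47.6 FPKM in LN libraries, against 251.9 and 295.3 FPKM in HN libraries. In each gene the lower HN value lay far above the higher LN value, as the plot of levels by library shows. Log2 changes were -2.47 for GRMZM2G113033 (SE 0.31, limma adjusted p = 0.0431) and -2.43 for RBCS (SE 0.24, limma adjusted p = 0.0365). In the same order they shrank to -1.87 and -1.89 under quantile normalization and to -2.01 and -1.97 with rescaling to equal totals.

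The small subunit loci can share reads, because their coding sequences are closely related, so the split between them is uncertain, while their sum is less affected. RBCS made up 44.6% and 48.9% of the sum in LN and 49.1% and 43.4% in HN. The sum was 115.9 and 97.4 FPKM in LN, against 513.3 and 679.9 FPKM in HN. As a share of the library's total FPKM this was 0.0174% and 0.0137% in LN, against 0.0630% and 0.0611% in HN, so the gap also holds on a scale that sets all library totals equal. The call of RBCS ended without LN1, without LN2 and when all loci above 0 were tested (limma adjusted p from 0.0737 to 0.171), and that of GRMZM2G113033 in these settings and with 0.1 in place of 1 FPKM added (limma adjusted p from 0.0517 to 0.203).

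Rubisco activase, the ATP-driven remodelling protein, is encoded by rca1 (GRMZM2G162200, chromosome 4, 693735 to 696087). It had 2.74 and 1.73 FPKM in LN libraries, against 13.0 and 10.2 FPKM in HN libraries. The groups were well apart, and the log2 change was -1.96 (SE 0.26, limma adjusted p = 0.0436). The call ended in 5 of 10 other settings, the same 4 as for GRMZM2G113033 and rescaling to equal totals, where the limma adjusted p was 0.0578. The neighbouring locus of rca3 (GRMZM2G162282) was listed at 0 in both LN libraries and at 0.0926 and 0 FPKM in the HN libraries.

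Among the genes that help to assemble rubisco, bsd2 (GRMZM2G062788), whose loss leaves bundle sheath cells without rubisco, was at 68.7 and 98.5 FPKM in LN and at 196.6 and 222.1 FPKM in HN, which missed the threshold (log2 difference -1.33, limma adjusted p = 0.0570; q-value 0.000179 in the authors' deposited table). It was -0.76 under quantile normalization and -0.87 with rescaling to equal totals. A locus that RBCL shares with another gene was left out. A pair of loci named RBCL alone, as the plastid gene of the large subunit is, lie on nuclear chromosomes and do not measure that gene directly. One (chromosome 6) was at 1.90 and 3.73 FPKM in LN and at 6.40 and 23.7 FPKM in HN, and the other (chromosome 1) at 7.69 and 9.15 FPKM in LN and at 9.23 and 11.5 FPKM in HN. Neither passed the test (limma adjusted p = 0.109 and 0.435), and the authors' deposited table called the first of them, with a q-value of 0.000166. The log2 difference of that locus was -1.87, with -2.74 without HN1 and -0.999 without HN2.

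Plastid glyceraldehyde-3-phosphate dehydrogenase, an enzyme of the reducing phase of the Calvin cycle, fell in both listed genes. gpb1 (GRMZM5G845611) had 43.3 and 44.2 FPKM in LN libraries, against 132.6 and 185.9 FPKM in HN libraries (log2 change -1.82, SE 0.25, limma adjusted p = 0.0437). GAPA had 73.7 and 47.7 FPKM in LN libraries, against 199.9 and 174.5 FPKM in HN libraries (log2 change -1.64, SE 0.29, limma adjusted p = 0.0471). Both calls ended with 0.1 in place of 1 FPKM added, with all loci above 0 tested, without LN1 and without LN2. That of GAPA also ended under quantile normalization (-1.15, limma adjusted p = 0.0764) and with rescaling to equal totals (-1.18, limma adjusted p = 0.0693). Over all 20 tested genes of the pathway lists besides the 8, 2 were lower and 0 higher, against 3.8% and 1.18% of all loci. Of the 20, 16 had negative and 4 positive differences, as 10191 and 12298 of all 22489 tested loci did. The median log2 difference of the 20 was -0.44, against 0.07 over all loci. The 2 called genes are gpb1 and GAPA. The authors' deposited table called 7 of the 20 lower (13.6% of all tested loci) and 0 higher (5.76%). Of the listed transcription factor genes, glk1, which supports chloroplast development, was at 11.1 and 7.29 FPKM in LN and at 11.4 and 16.0 FPKM in HN, nkd1 had a log2 difference of -0.06 and dof2 one of -0.03 (limma adjusted p = 0.251, 0.903 and 0.944 in this order). For glk1 the log2 difference was -0.53, and -0.10 with rescaling to equal totals. The signs of nkd1 and dof2 turned positive in some of the other settings.

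**Figure D2:**
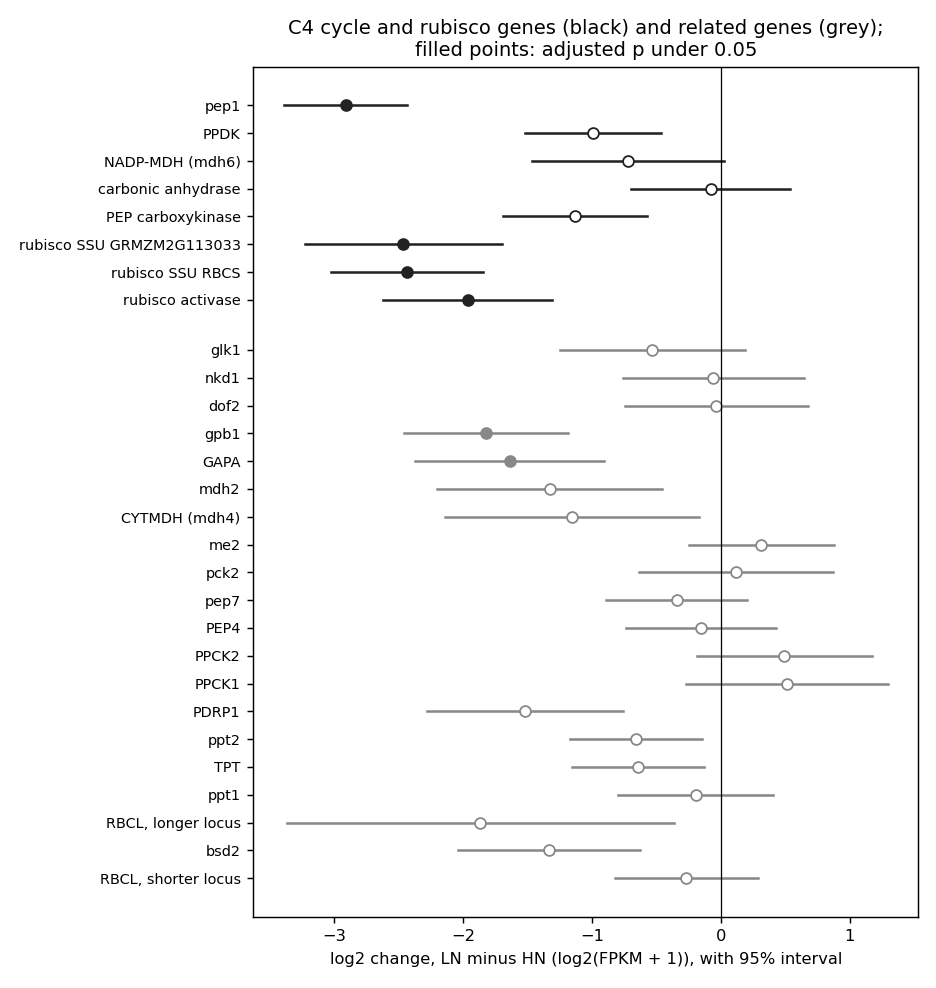
Log2 change, LN minus HN, on the log2(FPKM + 1) scale for the 8 genes (black) and 20 related genes (grey), with 95% intervals from limma. Filled points passed an adjusted p of 0.05, which were pep1, both small subunit genes, rca1, gpb1 and GAPA, and all of them lie left of 0.

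By role, the 5 C4 cycle genes had a median log2 difference of -0.99 with 1 lower past the threshold. The 3 rubisco genes had a median of -2.43 with 3 lower, where the small subunit loci, which can share reads, are counted separately. Over all 8 the median was -1.55, against 0.07 over all loci. The authors' deposited table called 6 of the 8 lower, against 13.6% of all tested loci. Both the median and this count include PEP carboxykinase, which passed the filter on low values only through the HN libraries. Placed by size of change, each gene's 95% interval overlapped that of the next gene, so neighbours in this order are not told apart, whereas the intervals of pep1 and RBCS did not overlap those of PPDK, mdh6 or carbonic anhydrase.

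Level and change were related over the whole table, and the small subunits lie at levels where the median locus was lower in LN. Among 3027 loci with a mean log2(FPKM + 1) from 5 to 7, the median log2 difference was -0.25 and 8.52% were called lower. From 7 to 9, where GRMZM2G113033 lies, these values were -0.79 and 14.1% over 856 loci. From 3 to 5, where pep1 and carbonic anhydrase lie, they were 0.07 and 3.39% over 8554 loci. Relative to the median of all loci in the same fit, pep1 was at -2.99 with rescaling to equal totals, RBCS at -2.46 and carbonic anhydrase at -0.15.

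**Figure D3:**
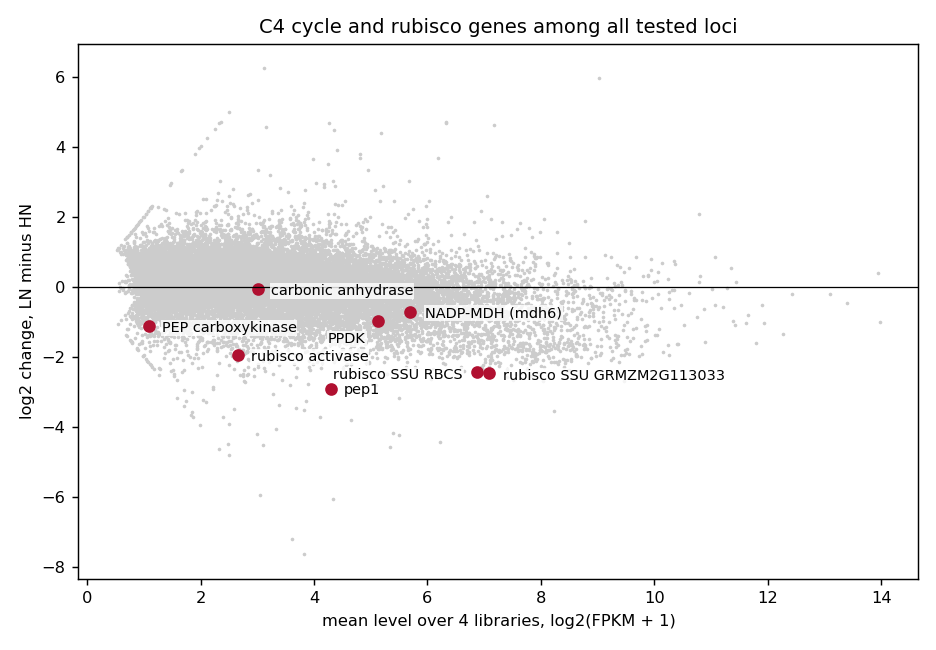
Log2 change, LN minus HN, against the mean level over all 4 libraries, both on the log2(FPKM + 1) scale, for the 22489 tested loci (grey) and the 8 genes (red). The small subunit genes and pep1 lie at the lower edge of the cloud, and carbonic anhydrase lies on the zero line.

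The order of the 8 genes by level differed between the groups. In LN the order in mean FPKM (± SD, n = 2) was GRMZM2G113033 (57.0 ± 10.2), RBCS (49.7 ± 2.87), mdh6 (39.6 ± 4.34), PPDK (24.1 ± 4.02), carbonic anhydrase (6.89 ± 0.0331), pep1 (6.18 ± 0.454), rca1 (2.24 ± 0.714) and PEP carboxykinase (0.440 ± 0.135). In HN it was GRMZM2G113033 (323.0 ± 87.0), RBCS (273.6 ± 30.7), mdh6 (67.7 ± 23.7), pep1 (53.1 ± 3.60), PPDK (48.6 ± 0.626), rca1 (11.6 ± 1.97), carbonic anhydrase (7.46 ± 2.02) and PEP carboxykinase (2.16 ± 0.304). The ranges of the 2 small subunit genes overlapped in both groups, and those of mdh6 and pep1 overlapped in HN. Other neighbours did not overlap, although those ranges rest on 2 libraries. In LN pep1 stood above 38.6% of the tested loci, against 87.4% in HN, while mdh6 stood above 86.3% in LN and 90.0% in HN.

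Ratios within a library do not depend on how libraries are scaled to each other. pep1 over PPDK was 0.276 and 0.241 in LN libraries, against 1.03 and 1.16 in HN libraries. pep1 over mdh6 was 0.160 and 0.152 in LN libraries, against 0.599 and 1.09 in HN libraries. The pep1 transcript was thus lower in relation to those of PPDK and mdh6 in both LN libraries than in either HN library. Against carbonic anhydrase, pep1 was at 0.853 and 0.940 in LN and at 5.69 and 9.23 in HN.

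The ratio to the small subunits separated the genes differently. pep1 over both small subunits was 0.0505 and 0.0667 in LN libraries, against 0.0985 and 0.0818 in HN libraries. PPDK over both small subunits was 0.183 and 0.276 in LN libraries, against 0.0955 and 0.0708 in HN libraries, so this ratio was higher in LN. Activase over both small subunits overlapped between the groups (0.0237 and 0.0178 in LN, 0.0252 and 0.01496 in HN), although with 1 FPKM added both LN values lay just above the HN values. RBCS over GRMZM2G113033 overlapped as well (0.805 and 0.957 in LN, 0.964 and 0.768 in HN). With 2 libraries against 2, an exact two-sided permutation test cannot go below p = 0.333, which 7 of the 8 ratios tested on the log2 scale reached (0.381 after Benjamini-Hochberg adjustment), so this test could call none of them.

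**Figure D4:**
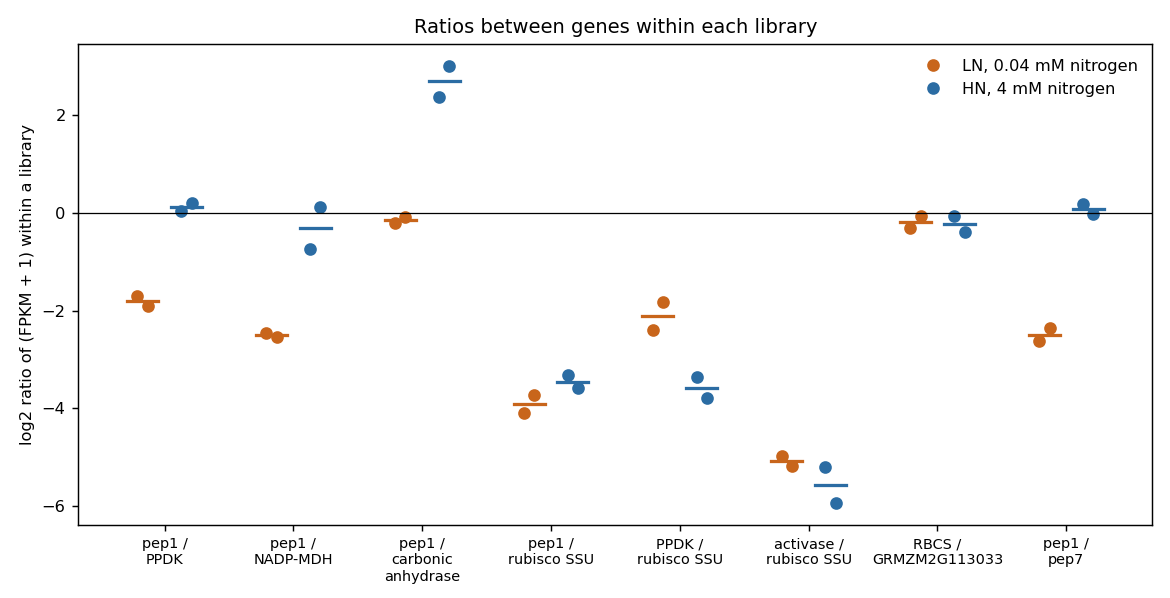
Log2 ratio of (FPKM + 1) between 2 genes within each library, with 1 point per library (LN left, HN right of each pair) and a bar at the mean. SSU stands for the sum of both small subunit rows, or for 1 of them where named. The LN points lie below the HN points for pep1 over PPDK, mdh6, carbonic anhydrase, pep7 and, by a small gap, SSU, and above them for PPDK over SSU and, by a small gap, for activase over SSU.

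The profile nearest to that of pep1 over the 4 libraries was sought among 4105 loci of 1 gene with a symbol and a mean of at least 5 FPKM, by the Euclidean distance between centred log2(FPKM + 1) values. The nearest was CYP71C4, with a distance of 0.396, at 11.7 and 16.9 FPKM in LN and at 122.6 and 151.3 FPKM in HN. GLK44 followed with 0.401, at 0.366 and 0.319 FPKM in LN and at 10.3 and 13.6 FPKM in HN. Its means differed 34.8-fold, against 8.60-fold for pep1, which the added 1 FPKM shrinks. It passed the filter on low values only through the HN libraries. GRMZM5G832108 had 0.489. RBCS was next with 0.514, and GRMZM2G113332 had 0.549. Over all tested loci, RBCS was the 19th nearest and GRMZM2G113033 the 40th, whereas carbonic anhydrase was the 9185th. With 4 libraries such a distance mostly reflects the size of the change on the log2(FPKM + 1) scale.

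Of the marker lists of other cell types, those of photosynthetic and dividing cells had lower medians in LN. Of 23 tested loci named for light-harvesting and photosystem proteins, all had negative differences, as 10191 of the 22489 loci did. By the test 3 were lower, against 3.8% of all loci (median -1.46). By an unadjusted p under 0.05, 18 of the 23 were lower (16.4% of all loci), and 20 by the authors' deposited table (13.6% of all loci). Their summed level was 6056 and 3496 FPKM in LN, against 10963 and 19144 FPKM in HN. Among the called ones, cab-m1 of the light-harvesting proteins had 158.0 and 64.7 FPKM in LN, against 554.3 and 798.96 FPKM in HN. Of 45 tested loci of dividing cells, named for histones, replication proteins and cyclins, 37 had negative and 8 positive differences. By the test 16 were lower, against 3.8% of all loci, and 0 higher (median -1.70). By an unadjusted p under 0.05, 31 of the 45 were lower and 3 higher (16.4% and 15.9% of all loci). Their sums were 2548 and 2245 FPKM in LN, against 6237 and 11752 FPKM in HN. Secondary wall markers went the other way, with 12 of 13 positive and 4 higher. Their sums were 533.6 and 567.2 FPKM in LN, against 409.5 and 581.2 FPKM in HN. Among 10 epidermis and wax markers all were positive and 1 was higher. These summed to 204.95 and 185.1 FPKM in LN, against 138.96 and 180.4 FPKM in HN. Over all 22489 tested loci 12298 were positive and 1.18% were higher by the test. No list summed to near 0 in either group. At 0 in at least 1 library were 2 of 25 photosynthetic (PSBE and psad1), 1 of 47 dividing, 1 of 39 elongating (PIP1-6), 2 of 19 secondary wall (Bk2L5 and Bk2L6) and 0 of 11 epidermis and wax loci. The part of these cell types in the lower levels of pep1 and the rubisco genes was not tested.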

How the data were processed

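RNA from the elongation zone of leaf 6 was sequenced in 2 LN and 2 HN libraries. The build B73 RefGen_v3 and the tools edgeR and TopHat2 are listed, without role, version or settings, among the submitters' processing notes. The authors deposited 1 table with FPKM per locus and library. It also holds their own comparison of LN with HN, as a log2 fold change with a p-value and a q-value, per the file headers. Both HN columns bear the same name, so they were taken as HN1 and HN2 without replicate numbers, and the dose of HN follows the description (mM), since another label writes nM.

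Of 31324 rows, 946 repeated a locus and were dropped, and 851 loci holding several genes stayed out of the lists. The 22489 loci that reached 1 FPKM in at least 2 libraries were fitted with limma 3.58.1 (R 4.3.3, mean-variance trend, residual degrees of freedom 2, prior 3.48) on log2(FPKM + 1), on group alone, and p-values were adjusted after Benjamini and Hochberg. This scale understates changes of weakly expressed genes. The fit was tested on simulated data. Ratios were tested with scipy 1.17.1. Errors after means are SDs over 2 libraries.

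The genes and lists were chosen with earlier results of these data known. All 9 names, related enzyme genes with a mean of at least 1 FPKM, called genes of the other pathway lists (or their 2 most abundant genes) and the 5 nearest profiles were named, and some further genes beside them. Lists were matched by symbol in the table or in RefSeq's gene names for assembly Zm-B73-REFERENCE-NAM-5.0. After values were seen, 6 genes that only share a name were removed. The lists for aminotransferases, photorespiration and other carbonic anhydrases had no match. Relatives by protein similarity were not analysed here, and 1 gene of the lists is not reported here. Alternatives changed the pseudocount, filter, scaling, trend and libraries.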

Additional observations from a re-analysis of the deposited data

How the results depend on the processing

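No paired analysis was possible because both HN columns carry the same replicate name, so the replicate block was not run. Of the 4 called genes among the 8, 2 remained called with 0.1 FPKM added (pep1 and RBCS), 3 with rescaling to equal totals, and 0 with all loci above 0 tested, where 0 loci were lower and 1 higher. Leaving out 1 library gave from 1 (without LN1 or LN2, pep1) to 7 (without HN2, all but carbonic anhydrase) called genes. In these fits the lone library of a group is assumed to vary like the other group. The median over the 8 was -2.21 with 0.1 FPKM added and -1.96 with a filter at 5 FPKM, which removes PEP carboxykinase. Over all loci 69 were lower and 32 higher with 0.1 FPKM added, 1749 and 971 under quantile normalization, and 980 higher with rescaling, so the share of calls that were lower was 76.3% in the main setting, 64.3% under quantile normalization and 42.9% with rescaling. Leaving out 1 library gave from 43 to 5305 lower and from 22 to 5165 higher loci. Of the pathway genes 0 were lower with 0.1 FPKM added and with all loci above 0, 1 was higher under quantile normalization, and without 1 library from 0 to 10 were lower and from 0 to 1 higher. The cause of these shifts was not tested. With no pseudocount the log2 ratio of pep1 to PPDK differed by -2.08 and that to pep7 by -2.76.

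Signs turned only for genes not called in the main setting, of which only pep7 was called in another (without HN1, -0.51, limma adjusted p = 0.0407). With rescaling to equal totals these were carbonic anhydrase (0.33), nkd1 (0.40), ppt1 (0.27), PEP4 (0.30), the RBCL locus on chromosome 1 (0.16), dof2 (0.32) and pep7 (0.12). Under quantile normalization they were nkd1 (0.23), ppt1 (0.26) and PEP4 (0.0077). Leaving out 1 library at a time gave from -0.33 to 0.17 for carbonic anhydrase, from -0.38 to 0.27 for nkd1, from -0.39 to 0.077 for PEP4, from -0.36 to 0.29 for dof2 and from -0.24 to 0.47 for pck2. By the library size estimated from the lowest FPKM values the HN libraries were the smaller ones, but whether they held fewer reads is unknown. Without counts no counting error can be given for PEP carboxykinase or other weakly expressed genes.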
